A study of Mus musculus with 4 samples.

Results

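Prostaglandin synthesis and receptors were followed as a set of 10 genes out of the 27998 in the count matrices. The set was chosen by name, with earlier results of these data known. It holds the phospholipase Pla2g4a, the cyclooxygenases Ptgs1 and Ptgs2, the terminal synthases Ptges, Ptgds and Ptgis, the breakdown enzyme Hpgd and the prostaglandin E receptors Ptger1, Ptger3 and Ptger4. All 10 were found in each matrix, and levels are given by library and by cell class. The study sorted green fluorescent protein (GFP)-positive cells from kidneys of BAC-CluGFP transgenic mice, in which GFP reports the clusterin gene Clu. The IRI libraries came 2, 7 and 30 days after 35 min of ischemia-reperfusion injury (IRI), and the comparison library came from untreated kidneys. All 4 groups carry the same transgene and passed the same sort, so each library shows cells that the reporter marked and not the whole kidney. There is 1 library per group, and the sources used here do not give the number of animals behind each. No test was possible, no p-value is given, and every interval below is an exact 95% interval that covers counting error only.

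Phospholipase A2 frees arachidonic acid from membranes, and a cyclooxygenase turns it into prostaglandin H2, which terminal synthases turn into prostaglandins E2, D2 and prostacyclin. In the kidney, prostaglandin E2 is made mainly by the collecting duct and by interstitial cells, and it acts on salt and water transport in the thick ascending limb and collecting duct. Ptgs1 is the constitutive cyclooxygenase, whereas Ptgs2 is induced by inflammatory signals and is made constitutively at the macula densa, the tubular salt sensor that controls renin release.

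Levels are UMIs (unique molecular identifiers, which count captured RNA molecules) of a gene per 1000000 UMIs of the summed cells (CPM). A gene was measured in a comparison if it reached 5 CPM in either library and 20 UMIs in both together. A difference was called where levels lay 2-fold or more apart and the interval of their ratio left out 1. The libraries held 1930 to 9286 barcodes and 49397016 to 98818914 UMIs, and 23140 of 27230 barcodes were kept. Pairs of libraries shared 4 to 20 barcode sequences. The lowest barcode had 2335 UMIs untreated, and 3881, 18362 and 5976 UMIs on days 2, 7 and 30. The median mitochondrial share per kept cell was 2.82 to 3.68% after IRI, against 14.5% untreated, so the libraries differ in that share and in depth beside their group. RNA quality was not measured, and the part of cell make-up in the mitochondrial share was not tested. Cells were assigned to classes by 22 marker lists that hold none of the 10 genes, and 82.4% of kept cells were assigned. In every class with at least 50 cells in a library, at least 5 of the class markers led that class. Macula densa cells carried Nos1, their defining enzyme, in 51 of 61 cells on day 2 and in 42 of 51 untreated cells.

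The promoters of the cyclooxygenases are shown because both catalyse the same step, while over whole libraries Ptgs2 was called in each comparison with untreated and Ptgs1 in none. Sequences are from RefSeq (GRCm38.p6), run from 250 bases before to 50 bases after the annotated start, and are on the plus strand. Ptgs2 lies at chr1:150100031-150108227 and its window at chr1:150099781-150100080. Ptgs1 lies at chr2:36230426-36252272 and its window at chr2:36230176-36230475. Capitals mark matches to 5 motifs searched on both strands.
Ptgs2: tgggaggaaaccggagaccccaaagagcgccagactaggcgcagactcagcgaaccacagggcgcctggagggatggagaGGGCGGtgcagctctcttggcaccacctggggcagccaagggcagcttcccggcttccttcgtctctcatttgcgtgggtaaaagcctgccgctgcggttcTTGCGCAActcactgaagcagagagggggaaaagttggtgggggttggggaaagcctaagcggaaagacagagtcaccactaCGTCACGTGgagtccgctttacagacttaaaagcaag
Ptgs1: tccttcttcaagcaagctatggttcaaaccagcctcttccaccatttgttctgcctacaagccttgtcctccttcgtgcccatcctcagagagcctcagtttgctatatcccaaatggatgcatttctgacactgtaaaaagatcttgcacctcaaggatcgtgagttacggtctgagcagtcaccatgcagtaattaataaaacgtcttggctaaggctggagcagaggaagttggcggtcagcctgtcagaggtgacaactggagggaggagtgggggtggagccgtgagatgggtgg
The Ptgs2 window held GGGCGG (GC box) at position -170 and TTGCGCAA (a palindrome of the C/EBP type) at -69, counted from the start. It also held CGTCA (the core of a cyclic AMP response element) at 14 and CACGTG (an E-box) at 17. The last 2 matches overlap by 2 bases and are printed as 1 run. The fifth motif, TATAAA, was absent from that window, and the Ptgs1 window held none of the 5. Among 32851 promoter windows of this length, the 8-letter palindrome was in 0.183%, the E-box in 7.15%, TATAAA or TTTATA in 13.6%, CGTCA or TGACG in 20.8%, and GGGCGG or CCGCCC in 35.7%. A match only describes these letters. A promoter entry was found for 8 of the 10 genes. GGGCGG or CCGCCC was also in the windows of Ptges, Ptger3, Ptger4 and Hpgd, and TATAAA or TTTATA in those of Pla2g4a and Hpgd. The windows of Ptges (from chr2:30903248) and Pla2g4a (from chr1:149922390) lie well inside the gene spans given below.

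Over whole libraries, Ptgs2 showed the largest difference of the 10 genes. Its 51750 UMIs on day 2 came to 586 CPM, against 67 UMIs and 1.24 CPM in the untreated library, a ratio of 472 (372 to 610). It was 6.77 CPM on day 7 and 10.2 CPM on day 30. Ptgs1 stayed between 32.1 and 48.8 CPM in the 4 libraries and was called in no comparison with the untreated one. Ptgds, the synthase of prostaglandin D2, took another course. It stood at 11.6 CPM in the untreated library, 2.31 on day 2, 149 on day 7 and 61.3 on day 30.

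On day 2 against untreated, Ptgs2, Pla2g4a (46.6 against 14.9 CPM) and Ptger4 (22.9 against 3.04 CPM) were called higher, 3 of 9 measured genes, where 22.1% of all 11445 measured genes were. Ptger3 (12.8 against 55.1 CPM), Ptger1 (3.59 against 12.8 CPM) and Ptgds were called lower, 3 of 9, where 17.3% of all genes were. On day 7 the higher genes were Ptgs2, Ptgds and Ptger4, 3 of 9 against a background of 21.2%. The lower ones were Ptges, Ptger1 and Ptger3, 3 of 9 against 10.7%. On day 30, 6 of 10 were higher against 23.9%, namely Ptgs2, Ptgds, Ptgis, Pla2g4a, Hpgd and Ptger4, and 3 of 10 were lower against 11.5%, namely Ptges, Ptger1 and Ptger3. The median log2 ratio of the measured genes of the set, with 10 CPM added to each level, was 0.14 on day 2, 0.02 on day 7 and 0.53 on day 30. Over all measured genes it was 0.07, 0.24 and 0.25. On day 30 the calls of Ptgis, Pla2g4a and Hpgd were lost with libraries scaled by their median gene, with at most 20% mitochondrial UMIs and in gated epithelium alone. In gated epithelium Ptger3 on day 2 (39.1 against 58.6 CPM) and Ptges on day 30 were not called either. Ptgs2 there did not reach the minimum on day 7 (4.57 CPM) or day 30 (4.35 CPM). Its whole-library calls on these days were also lost with a 20 CPM minimum. In whole libraries, fewer cells of a type and less RNA per cell cannot be told apart.

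**Figure D1:**
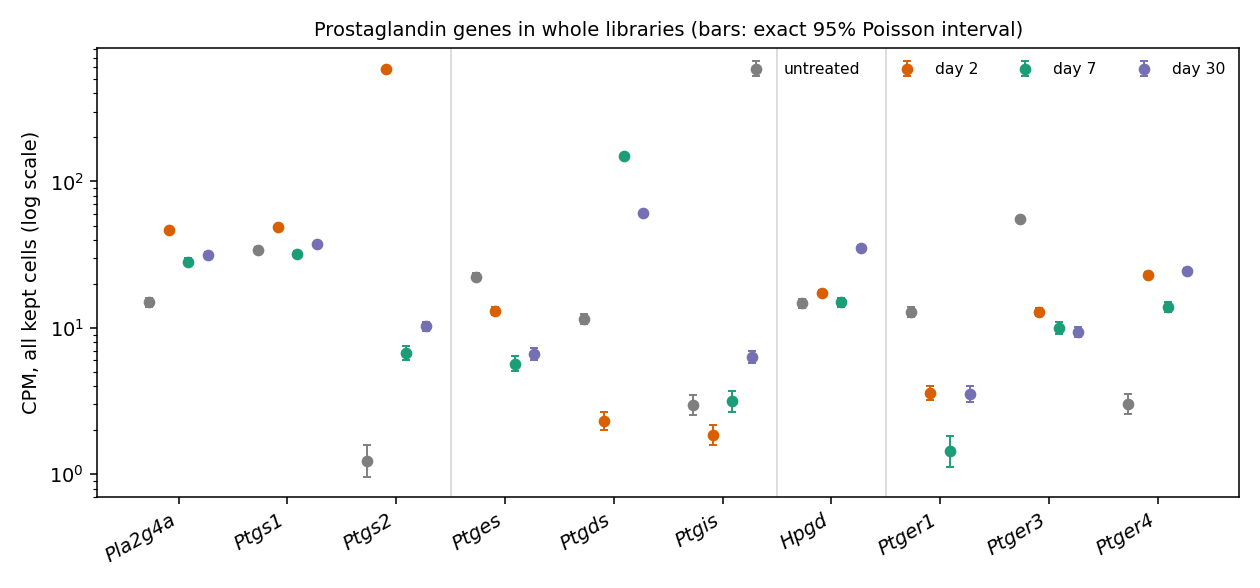
Level of each of the 10 genes in the 4 whole libraries, in CPM on a log axis, with exact 95% Poisson intervals. Ptgs2 stands at 586 CPM on day 2 and at 1.24 CPM in the untreated library, and Ptgds stands highest on day 7 with 149 CPM.

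Cell make-up differed widely. Neutrophils were 2530 of 8310 kept cells on day 2 and 11 of 6545 in the untreated library. Proximal tubule cells were 81 on day 2, 65 on day 7 and 221 on day 30, against 2793 untreated cells. Levels were therefore read within classes that had at least 50 cells in each library compared. On day 2, 53 gene and class pairs were measured in 9 classes, with 16 higher and 12 lower than untreated. On day 7, 21 pairs were measured in 4 classes, with 7 higher and 4 lower, and on day 30, 49 pairs in 8 classes, with 16 higher and 5 lower.

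The counts within classes were small and are read beside the share of all measured genes of that class. In the thick ascending limb 2 of 5 genes were higher and 2 lower on day 2, where 15.1% and 10.9% of all genes were. On day 7 these were 3 and 2 of 7 (24.2% and 7.64% of all genes), and on day 30 they were 3 and 1 of 6 (28.2% and 7.82%). In the proximal tubule 3 of 4 were higher and 0 lower on day 2 (19% and 3.55%), 1 and 1 of 2 on day 7 (18.7% and 2.72%), and 2 and 1 of 4 on day 30 (18.7% and 2.31%). Principal cells had 2 higher and 2 lower of 8 on day 2 (10.7% and 9.33%) and 2 and 0 of 8 on day 30 (13.5% and 7%). Intercalated cells had 3 higher and 1 lower of 7 on day 2 (11.3% and 8.44%) and 4 and 0 of 7 on day 30 (13% and 5.65%). The distal convoluted and connecting tubule, compared on day 2 alone, had 1 higher and 4 lower of 7 (15.5% and 9.47%), and the macula densa had 2 and 0 of 5 (8.84% and 8.58%).

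Thin limb cells had 1 higher and 1 lower of 3 on day 2 (8.27% and 12.2%), 2 and 0 of 5 on day 7 (11.7% and 10.8%) and 0 of 4 in either direction on day 30 (9.25% and 7.67%). Urothelium had 1 and 1 of 7 on day 2 (5.22% and 6.9%), 1 and 1 of 7 on day 7 (4.45% and 3.99%) and 1 and 0 of 7 on day 30 (8.31% and 5.26%). Endothelium had 1 and 1 of 7 on day 2 (10.1% and 9.21%) and 3 and 2 of 8 on day 30 (10.8% and 8.07%). Pericytes or smooth muscle cells had 1 and 1 of 5 on day 30 (12.3% and 10.1%). With 1 to 4 genes called in a direction, such counts say little of the set, and the results below are about single genes.

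**Figure D2:**
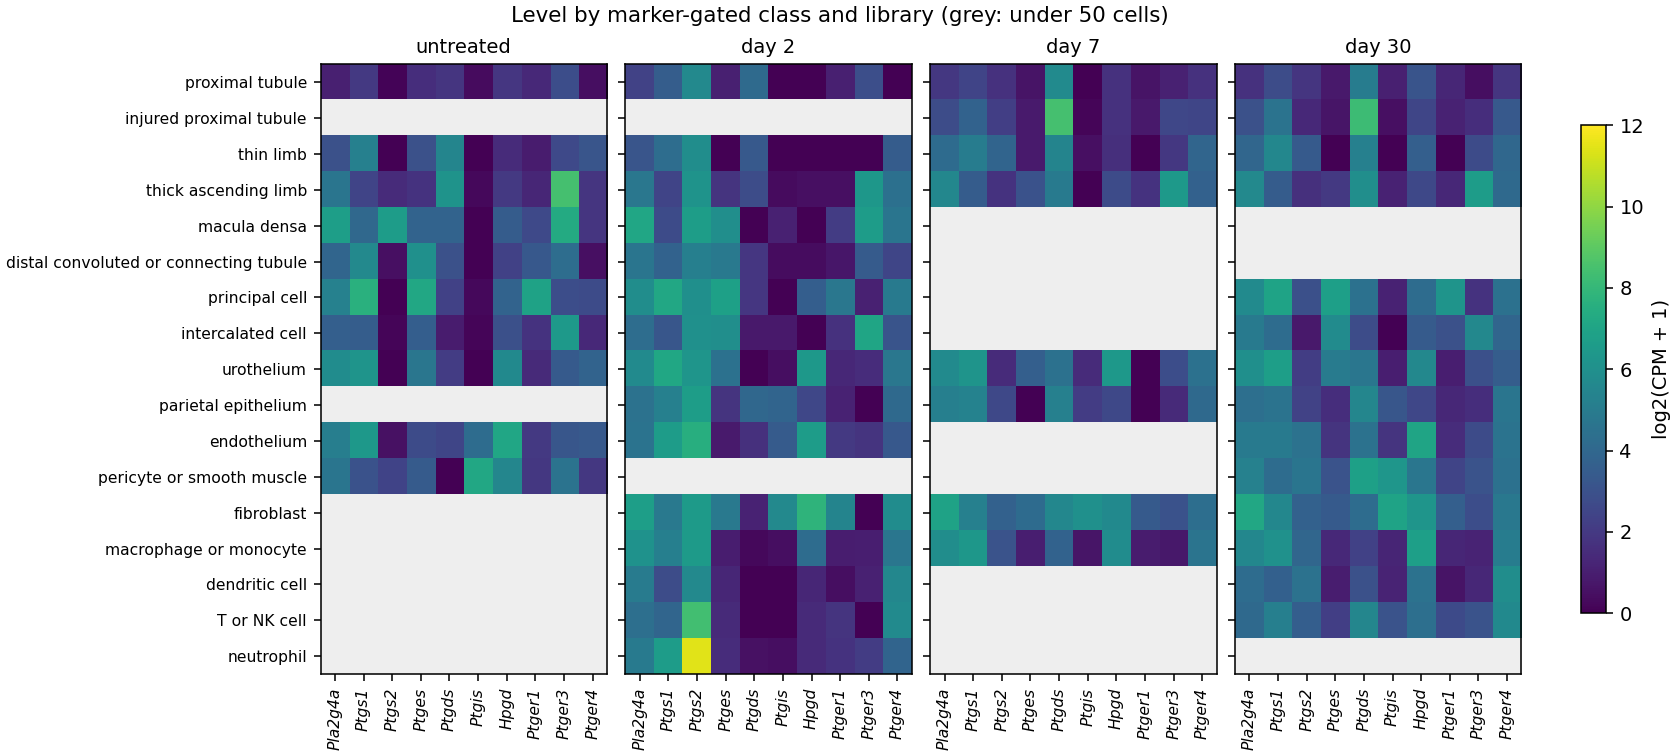
Level of the 10 genes in each class and library as log2(CPM + 1), with classes under 50 cells in grey. Ptgs2 is brightest in day 2 neutrophils, Ptgds in injured proximal tubule cells on days 7 and 30, and Ptger3 in the untreated thick ascending limb.

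Pla2g4a, on the minus strand at chr1:149829618-149961290, encodes the cytosolic phospholipase that releases arachidonic acid. Its end nearest to Ptgs2 lies 138741 bases from that gene. Among untreated classes of at least 50 cells it was highest in the macula densa, at 106 CPM (41 UMIs), 4.40 (3.01 to 6.32) times the 24.1 CPM of the thick ascending limb. On day 2, macula densa cells had 138 CPM and fibroblasts 103 CPM. Fibroblasts then had 121 CPM on day 7 and 143 CPM on day 30, the highest class there. Macrophages held 37.3% of the library's Pla2g4a UMIs on day 2, at 68.2 CPM, then 57.9 CPM on day 7 and 45.3 CPM on day 30.

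Within epithelial classes Pla2g4a was called higher in 3 comparisons with untreated. In the thick ascending limb it was 24.1 CPM untreated, 25.7 on day 2, 45.4 on day 7 and 49.3 on day 30. The day 30 ratio of 2.04 (1.61 to 2.61) was called higher, but it was 1.41 and not called when libraries were scaled by their median gene. It was not called either with doublets kept, with at most 20% mitochondrial UMIs or with clusters in place of gates. Intercalated cells had 30.1 CPM on day 30, against 11.5 CPM untreated, a ratio of 2.60 (1.76 to 3.79). Thin limb cells had 17.5 CPM on day 7, against 6.96 CPM untreated, a ratio of 2.51 (1.17 to 6.19) that was not called under the stricter gate. Thin limb cells lay mostly in cluster 5 after IRI, a cluster that carried no class name, and in cluster 35 untreated.

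Ptgs1, the constitutive cyclooxygenase, was a gene of principal cells, the collecting duct cells that take up salt and water. They had 198 CPM (186 to 212) untreated, 144 CPM (134 to 154) on day 2 and 122 CPM (106 to 140) on day 30. The untreated interval lies above the other 2, which overlap, and no difference reached 2-fold. In the untreated library 50.7% of all Ptgs1 UMIs were in principal cells. Urothelium, the lining of the renal pelvis, had 72.9 CPM untreated, 142 on day 2, 73.2 on day 7 and 106 on day 30, and on day 2 its level and that of principal cells did not differ beyond counting error. Neutrophils had 97.5 CPM on day 2 and held 35.3% of that library's Ptgs1 UMIs.

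Called differences in Ptgs1 within classes went both ways. Endothelium had 30.1 CPM on day 30 (48 UMIs), against 82.0 CPM untreated (189 UMIs), a ratio of 0.367 (0.261 to 0.506). Most cells lay in cluster 20 on day 30 and in cluster 24 untreated. Distal convoluted and connecting tubule cells had 12.7 CPM on day 2, against 49.4 CPM untreated, a ratio of 0.257 (0.174 to 0.372). With clusters in place of gates that ratio was 0.524 and not called, and most of these cells lay in cluster 19 on day 2 and in cluster 29 untreated. Thick ascending limb cells had 10.3 CPM on day 7 and 10.3 CPM on day 30, against 4.42 CPM untreated. Both ratios, 2.33 (1.23 to 4.40) and 2.33 (1.32 to 4.17), were not called with libraries scaled by their median gene, and the day 7 one was not called with clusters. Macrophages had 82.0 CPM on day 7, against 35.1 CPM on day 2, a ratio of 2.34 (2.09 to 2.61) where 9.24% of all genes were higher.

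Ptgs2, the inducible cyclooxygenase, was a neutrophil transcript on day 2. Neutrophils, first responders of the innate immune system, held 44753 of its 51750 UMIs (86.5%) at 2862 CPM. A Ptgs2 UMI was found in 94.7% of the 2530 neutrophils, with a median of 14 UMIs per cell, quartiles of 6 and 25, and a highest value of 107. When each cell was thinned to 2000 UMIs the share was 88.8%. Among classes of at least 50 cells, the next were T or NK cells at 329 CPM and endothelium at 181 CPM. The few neutrophils of the other libraries also held it, with 10 UMIs in 11 untreated cells, 7 in 3 cells on day 7 and 18 in 5 cells on day 30.

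Ptgs2 was called higher on day 2 in 8 of the 9 classes compared with untreated, all but the macula densa. Thick ascending limb cells had 70.8 CPM on day 2, against 1.81 CPM untreated, a ratio of 39.1 (20.4 to 86.0). Endothelium had 181 CPM, against 0.434 CPM from 1 UMI, a ratio of 417 (74.4 to 1.65e+04). Principal cells had 61.2 CPM, against 0 UMIs untreated, which is at least 95.7-fold with 3 counts as the floor for the untreated class. By the same floor, urothelium was at least 59.5-fold and thin limb at least 22.6-fold higher.

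Neutrophil transcripts were found beside Ptgs2 in these classes, and an association of their levels across classes was not computed. Between 10 and 11 of the 11 neutrophil markers were found in each other class on day 2, and summed S100a8 and S100a9, the dominant neutrophil transcripts, stood at 863 CPM in dendritic cells, the lowest, and at 8644 CPM in T or NK cells. For each 1000 UMIs of S100a8 and S100a9 there were 31.0 (30.7 to 31.3) UMIs of Ptgs2 in neutrophils. The other classes had 35.9 (32.0 to 40.0) in principal cells as the lowest value and 65.7 (52.9 to 80.7) in macula densa cells as the highest. In thick ascending limb cells the value was 47.2 (43.3 to 51.3), and in macrophages it was 62.3 (59.6 to 65.0). A Ptgs2 UMI was found in 38.5% of principal cells at a median depth of 12868 UMIs, against 94.7% of neutrophils at 5170 UMIs. Thinned to 2000 UMIs, these shares were 8.61% and 88.8%. With 10% of the library mean subtracted from each class, Ptgs2 no longer reached the minimum in proximal tubule, principal, intercalated, thin limb and distal tubule cells. It remained called higher in the thick ascending limb (ratio 7.24), urothelium and endothelium (ratio 394). With 30% subtracted it reached the minimum in none of the 8 classes. The part of free neutrophil RNA in these levels was not tested beyond these subtractions.

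**Figure D3:**
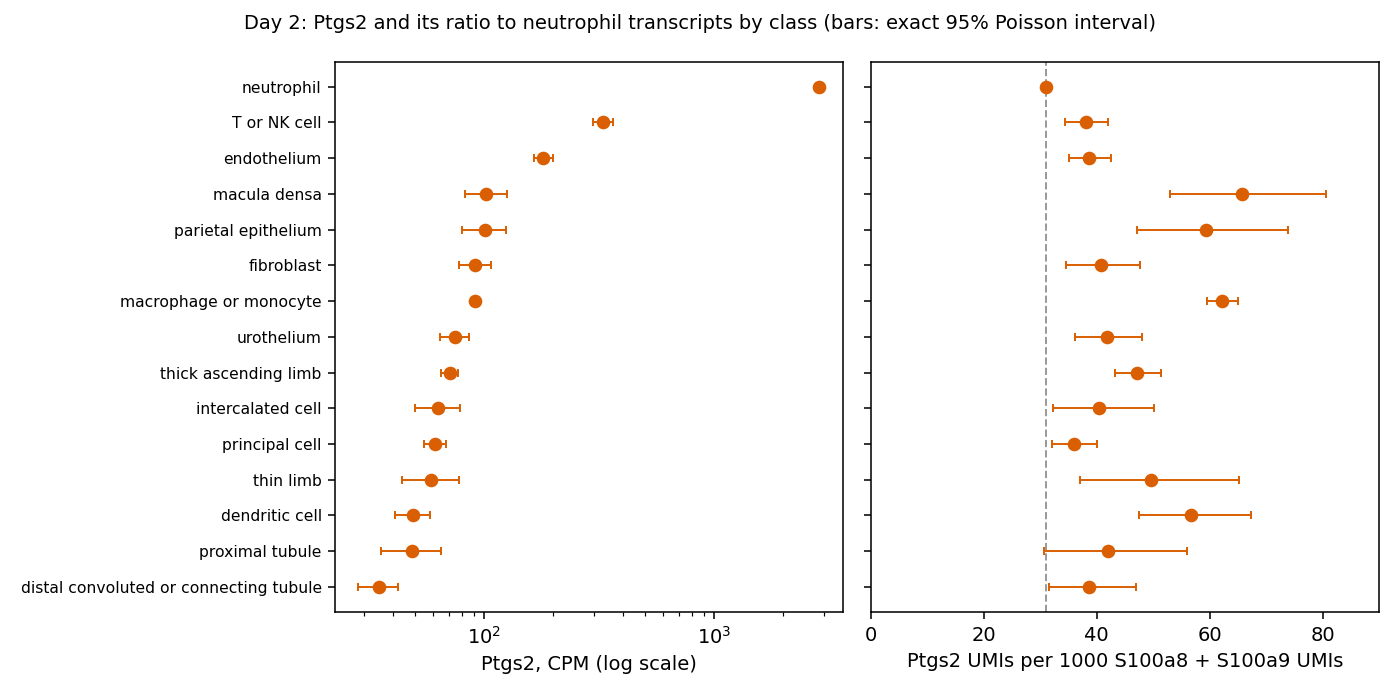
Day 2 classes with at least 50 cells, with exact 95% Poisson intervals. Left, Ptgs2 in CPM on a log axis, with neutrophils at 2862 CPM; right, Ptgs2 UMIs per 1000 UMIs of S100a8 and S100a9, with the neutrophil value of 31.0 as a dashed line and all other classes above it.

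Macula densa cells were the main Ptgs2 class of the untreated library, where they held 38 of its 67 Ptgs2 UMIs. Their level was 102 CPM (82.2 to 125) in 61 cells on day 2, against 98.4 CPM (69.6 to 135) in 51 untreated cells, and it was not called. With 10% of the library mean subtracted these levels were 43.6 CPM on day 2 and 98.3 CPM untreated, a ratio of 0.443 (0.276 to 0.712) that was called lower, and with 30% subtracted the day 2 level came to 0. Most macula densa cells lay in cluster 11 on day 2 and in cluster 16 untreated. On day 2, 32 of 61 cells had a Ptgs2 UMI, and 28 of these also had Nos1. Of the 51 untreated cells, 15 had one, and 13 of these also had Nos1. The ratio of macula densa to thick ascending limb was 1.44 (1.14 to 1.80) on day 2, against 54.4 (25.8 to 128) untreated. Only 4 and 14 macula densa cells were found on days 7 and 30, with 8 and 2 Ptgs2 UMIs.

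On day 30, Ptgs2 was spread thinly over other classes, with 24.1 CPM in pericytes, 21.9 CPM in endothelium, 21.9 CPM in dendritic cells and 14.7 CPM in macrophages. Endothelium was called higher than untreated, with 35 UMIs against 1 UMI, a ratio of 50.5 (8.50 to 2.05e+03). In these 4 classes S100a8 and S100a9 summed to 9.03 to 41.0 CPM, and they held 359 to 2667 UMIs of Ptgs2 per 1000 UMIs of these transcripts. Thin limb cells had 13.4 CPM on day 7 (33 UMIs), against 0 UMIs untreated, at least 5.15-fold, which did not reach the minimum under the stricter gate. Against day 2, macrophages had 0.161 (0.137 to 0.188) of the level on day 30, where 6.47% of all genes were lower, and 0.0815 (0.0605 to 0.108) on day 7, where 3.57% were. With 30% of the library mean subtracted from each class both calls turned to higher, as the day 2 level then came to 0.

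Ptges, on the minus strand at chr2:30889471-30929863, encodes microsomal prostaglandin E synthase. Principal cells had the highest level in each library with at least 50 of them, at 145 CPM (134 to 156) untreated, 113 CPM (104 to 122) on day 2 and 107 CPM (92.1 to 124) on day 30, and neither IRI library was called. Over whole libraries Ptges had 5.71 CPM on day 7 and 6.63 CPM on day 30, against 22.4 CPM untreated, ratios of 0.254 (0.223 to 0.290) and 0.296 (0.265 to 0.330). In principal cells the day 30 ratio was 0.740 (0.624 to 0.874). Over gated epithelium alone, the level was 12.9 CPM on day 30, against 22.0 CPM untreated, and was not called.

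Intercalated cells, the acid-base cells of the collecting duct, showed the largest called difference in Ptges within a class. They had 60.8 CPM on day 2 (80 UMIs, 113 cells) and 54.1 CPM on day 30 (72 UMIs, 113 cells), against 10.97 CPM untreated (96 UMIs, 857 cells). The ratios were 5.55 (4.07 to 7.54) and 4.93 (3.58 to 6.77). A Ptges UMI was found in 35.4% of intercalated cells on day 2 and 25.7% on day 30, against 7.00% untreated. On day 7, 22 cells had 38 UMIs and 75 CPM. The calls on days 2 and 30 were kept under each alternative that could be computed.

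Intercalated subtypes were unequally represented. Slc4a1, the anion exchanger of acid-secreting type A cells, stood at 154 CPM on day 2 and 137 CPM on day 30, against 651 CPM untreated. Slc26a4, the exchanger of base-secreting type B and related cells, stood at 809 and 323 CPM, against 374 CPM untreated. Cells with Slc26a4 and no Slc4a1 UMI had 92.3 CPM of Ptges on day 2 (57 cells) and 71.3 CPM on day 30 (49 cells), against 20.0 CPM untreated (254 cells), with ratios of 4.62 (3.18 to 6.72) and 3.57 (2.32 to 5.44). Cells with Slc4a1 and no Slc26a4 UMI had 16.7 CPM on day 2 (6 UMIs) and 28.0 CPM on day 30 (10 UMIs), against 1.80 CPM untreated (9 UMIs). Their ratios were 9.27 (2.72 to 29.2) and 15.6 (5.68 to 43.3). Most intercalated cells lay in cluster 27 after IRI and in cluster 18 untreated.

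Macula densa cells had 59.5 CPM of Ptges on day 2 (53 UMIs), against 12.9 CPM untreated (5 UMIs), a ratio of 4.59 (1.85 to 14.7). Distal convoluted and connecting tubule cells had 27.7 CPM on day 2, against 63.8 CPM untreated, a ratio of 0.434 (0.329 to 0.570) that was 0.989 with clusters in place of gates. In urothelium Ptges was 11.3 CPM on day 7, against 25.4 CPM untreated, a ratio of 0.446 (0.225 to 0.820) that was not called with 30% of the library mean subtracted. Neutrophils, with the most Ptgs2, had 1.92 CPM of Ptges (30 UMIs in 2530 cells).

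Ptgds, on the minus strand at chr2:25466709-25470046, encodes lipocalin-type prostaglandin D synthase, which also carries small lipids. After IRI its main class was injured proximal tubule, cells gated by Havcr1, Vcam1, Krt20 and other injury markers. They had 353 CPM (344 to 363) in 578 cells on day 7 and 298 CPM (283 to 313) in 371 cells on day 30, and held 75.8% and 35.6% of the Ptgds UMIs of these libraries. A Ptgds UMI was found in 89.97% of these cells on day 7, with a median of 8 UMIs, and in 77.4% on day 30, with a median of 2. Thinned to 2000 UMIs, the shares were 42.6% and 36.7%. Proximal tubule cells without the injury gate had 52.9 and 31.8 CPM at these times, and the ratios of injured to other proximal tubule were 6.68 (5.44 to 8.29) on day 7 and 9.35 (7.52 to 11.8) on day 30. Only 11 day 2 and 3 untreated cells passed the injury gate, so this class was not compared with them. Cells outside all gates held another 38.3% of the day 30 Ptgds UMIs, at 83.3 CPM.

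Proximal tubule cells themselves had more Ptgds than untreated at each time, with 2.67 CPM untreated, 16.9 on day 2, 52.9 on day 7 and 31.8 on day 30. The ratios were 6.34 (3.42 to 11.1), 19.8 (14.2 to 27.8) and 11.9 (8.51 to 16.8). Most cells lay in cluster 1 untreated, cluster 15 on days 2 and 7 and cluster 23 on day 30. With 30% of the library mean subtracted from each class the day 30 call was kept, whereas Ptgds no longer reached the minimum on days 2 and 7.

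In the thick ascending limb Ptgds was called lower on days 2 and 7. It stood at 69.6 CPM untreated (346 UMIs, 55.4% of that library's), 5.86 CPM on day 2, 29.9 CPM on day 7 and 59.3 CPM on day 30. The day 2 ratio was 0.0843 (0.0604 to 0.115), and the day 7 ratio was 0.430 (0.324 to 0.563), which was 0.604 and not called with clusters. The untreated level sat in cells with Cldn10 and no Cldn16, the claudin pattern of sodium-permeable segments. Untreated cells with Cldn16 and no Cldn10 had 3.90 CPM (2 UMIs, 74 cells). The Cldn10 cells had 5.98 CPM on day 2 (13 UMIs, 166 cells), against 153 CPM untreated (283 UMIs, 260 cells), a ratio of 0.0390 (0.0205 to 0.0679). On day 30 the subsets differed in direction. The ratio to untreated was 0.475 (0.361 to 0.617) in cells with Cldn10 and no Cldn16, 2.17 (1.57 to 3.04) in the 154 cells with both, and 15.1 (3.52 to 136) in cells with Cldn16 and no Cldn10, from 15 UMIs against 2. Thin limb cells showed a lower level on day 2 as well, with 9.25 CPM against 42.7 CPM untreated, a ratio of 0.217 (0.0887 to 0.462), with the same difference in clusters as above.

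Pericytes or smooth muscle cells had 111 CPM of Ptgds on day 30 (74 UMIs), against 0 UMIs in 116 untreated cells, at least 26.2-fold. On day 30, 46.3% of these cells lay in cluster 8, which carried parietal epithelial markers, while 85.3% of the untreated ones lay in cluster 33. Principal cells and urothelium had 21.1 and 25.02 CPM on day 30, against 4.05 and 3.33 CPM untreated, both called higher. With 30% of the library mean subtracted neither reached the minimum. The urothelium call was lost under the stricter gate, and with clusters its ratio was 0.773 and below the minimum. The part of free RNA in them was not tested further.

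Ptgis, on the minus strand at chr2:167191805-167240604, encodes prostacyclin synthase, an enzyme of vessel walls. Pericytes or smooth muscle cells had 78.3 CPM (58.5 to 103) on day 30, against 147 CPM (120 to 178) untreated, not called, and they held 64.2% of the untreated UMIs. Fibroblasts had 49.9 CPM on day 2 (83 UMIs), 63.9 CPM on day 7 (125 UMIs) and 122 CPM on day 30 (217 UMIs). The ratio of day 30 to day 2 was 2.44 (1.89 to 3.19), where 10.9% of all genes in the class were higher. Endothelium had 2.51 CPM on day 30 (4 UMIs), against 18.2 CPM untreated (42 UMIs), a ratio of 0.138 (0.0358 to 0.379). Tubule and urothelial classes of at least 50 cells were at 1.74 CPM or lower in every library.

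**Figure D4:**
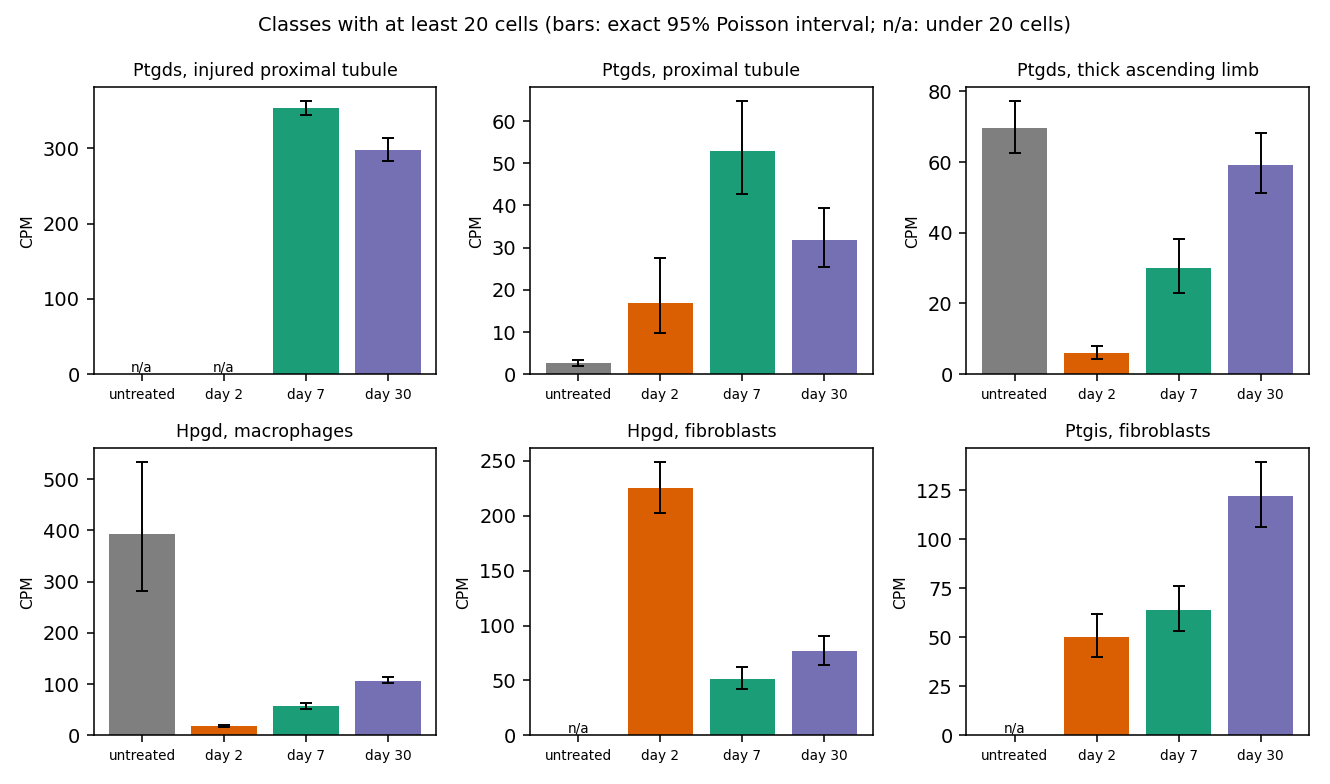
Ptgds, Hpgd and Ptgis in the classes that held most of them, in CPM with exact 95% Poisson intervals, from untreated to day 30. Ptgds in injured proximal tubule was 353 CPM on day 7, and Ptgis in fibroblasts was 122 CPM on day 30; libraries with under 20 cells of a class are marked n/a.

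Hpgd, on the plus strand at chr8:56294585-56321043, encodes the dehydrogenase that starts the breakdown of prostaglandins. Over whole libraries it was 35.4 CPM on day 30 and 14.7 CPM untreated. Macrophages had 18.1 CPM on day 2 (408 UMIs, 1799 cells), 56.6 CPM on day 7 (389 UMIs, 283 cells) and 107 CPM on day 30 (1275 UMIs, 1072 cells). Against day 2 the ratios were 3.12 (2.71 to 3.60) on day 7 and 5.90 (5.28 to 6.62) on day 30, where 9.24% and 11.1% of all genes were higher. A Hpgd UMI was found in 8.0% of macrophages on day 2 and 41.4% on day 30, and in 2.83% and 16.8% after thinning to 2000 UMIs. The 21 untreated macrophages had 41 UMIs and 393 CPM, too few cells for a comparison. Dendritic cells had 22.3 CPM on day 30, against 1.48 CPM on day 2 (4 UMIs), a ratio of 15.0 (5.71 to 56.0) where 15.7% of all genes were higher. Most macrophages lay in cluster 0 on day 2 and in cluster 4 later. Of dendritic cells 47.2% lay in cluster 21 on day 2, and 55.7% lay on day 30 in cluster 6, which carried no class name.

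Fibroblasts went the opposite way for Hpgd. They had 225 CPM on day 2 (374 UMIs), 51.6 CPM on day 7 (101 UMIs) and 76.4 CPM on day 30 (136 UMIs). The ratios to day 2 were 0.230 (0.182 to 0.287) and 0.340 (0.277 to 0.415), where 8.41% and 5.53% of all genes were lower. Endothelium had 98.4 CPM on day 2 and 127 CPM on day 30, against 136 CPM untreated, with no call. A Hpgd UMI was found in 8.65% of endothelial cells on day 2 and 31.2% on day 30, against 7.24% untreated. These shares depend on depth, which was 5554 and 8720 UMIs at the median, against 3714 untreated. Urothelium had 50.01 CPM untreated, 83.8 on day 2, 83.7 on day 7 and 47.5 on day 30.

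Ptger1, on the plus strand at chr8:83666678-83672753, encodes the EP1 receptor, which raises cell calcium and is known to curb sodium uptake in the collecting duct. The sources used here do not say whether counting used strand, so reads from both strands of this locus may be counted together. Principal cells held 80.7% of its untreated UMIs. They had 26.5 CPM on day 2 (138 UMIs) and 72.9 CPM on day 30 (121 UMIs), against 119 CPM untreated (560 UMIs). The day 2 ratio was 0.222 (0.183 to 0.268), and it was called under each alternative that could be computed. The day 30 level was 2.76 (2.14 to 3.54) times that of day 2, where 8.2% of all genes were higher. Aqp2, the water channel that marks these cells, was 1546 CPM on day 2 and 1220 CPM on day 30, against 4420 CPM untreated. Fxyd4, another principal cell marker, was 2801 and 1887 CPM, against 2547 CPM untreated. Most principal cells lay in cluster 13 after IRI and in cluster 10 untreated.

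Fibroblasts were a second Ptger1 class on day 2, with 42.1 CPM (70 UMIs), above principal cells. They had 9.71 CPM on day 7 and 11.2 CPM on day 30, and the ratios to day 2 were 0.231 (0.131 to 0.387) and 0.267 (0.154 to 0.444).

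Ptger3, on the plus strand at chr3:157566892-157645888, encodes the EP3 receptor, which lowers cyclic AMP and is known to oppose vasopressin in the thick ascending limb and collecting duct. The thick ascending limb had 354 CPM (337 to 370) untreated from 1758 UMIs. It had 80.8 CPM on day 2 (620 UMIs), 85.1 CPM on day 7 (182 UMIs) and 98.1 CPM on day 30 (324 UMIs). The ratios of 0.229 (0.208 to 0.251), 0.241 (0.205 to 0.281) and 0.277 (0.246 to 0.312) were called lower, and they were called under each alternative that could be computed. The share of these cells with a Ptger3 UMI was 46.3% on day 2, 55.2% on day 7 and 47.3% on day 30, against 61.6% of untreated cells. After thinning to 2000 UMIs it was 13.6%, 14.9% and 16.2%, against 40.8%.

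These cells were deeper and carried fewer proximal tubule transcripts after IRI. Their median depth was 14084.5 UMIs on day 2, against 5596 untreated, and the 20 proximal tubule markers summed to 34.0 CPM in them on day 2, against 10537 CPM untreated. Slc12a1, the transporter that defines the segment, was 1827 CPM on day 2, 3138 CPM on day 7 and 3647 CPM on day 30, against 5689 CPM untreated. In cells with Cldn10 and no Cldn16, Ptger3 was 151 CPM on day 2, against 525 CPM untreated, a ratio of 0.289 (0.254 to 0.327). In cells with Cldn16 and no Cldn10 it was 11.4 CPM on day 2 (27 UMIs), against 27.3 CPM untreated (14 UMIs). Their ratio was 0.417 (0.211 to 0.859). It was 0.294 (0.254 to 0.340) in cells with both and 0.451 (0.202 to 1.00) in cells with neither. Each subset ratio on day 2 thus lay above the class ratio given before. Cells with Cldn16 and no Cldn10 were 160 of 514 on day 2, against 74 of 581 untreated. The part of this shift in the class ratio was not tested. Most cells lay in cluster 16 untreated, cluster 11 on days 2 and 7 and cluster 12 on day 30.

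Ptger3 was also called lower in classes where it was low. On day 2 principal cells had 1.15 CPM (6 UMIs), against 6.17 CPM untreated, urothelium had 1.90 CPM, against 9.59 CPM, and endothelium had 2.55 CPM, against 8.25 CPM. Proximal tubule cells had 1.14 CPM on day 7 (2 UMIs) and 0.370 CPM on day 30 (1 UMI), against 6.11 CPM untreated. Pericytes or smooth muscle cells had 7.53 CPM on day 30 (5 UMIs), against 22.6 CPM untreated (16 UMIs). With 10% of the library mean subtracted none of these 6 reached the minimum. The endothelial call was also lost with doublets kept and with at most 20% mitochondrial UMIs, and that of pericytes under the stricter gate.

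Intercalated cells had 134 CPM on day 2 (176 UMIs) and 48.1 CPM on day 30 (64 UMIs), against 87.7 CPM untreated (768 UMIs), and neither was called. The day 30 level was 0.359 (0.266 to 0.481) of that on day 2, where 3.1% of all genes were lower. In Slc26a4 cells without Slc4a1 the day 2 level was 144 CPM, against 64.5 CPM untreated, a ratio of 2.24 (1.73 to 2.87). In Slc4a1 cells without Slc26a4 it was 128 CPM, against 106 CPM untreated, a ratio of 1.20 (0.871 to 1.63). On day 30 the ratios to untreated were 0.691 (0.436 to 1.05) in the first subset and 0.448 (0.259 to 0.725) in the second. In the 6 day 30 cells with both transcripts the ratio was 0.122 (0.00301 to 0.713), from 1 UMI. Macula densa cells had 98.8 CPM on day 2, against 163 CPM untreated, with no call. On day 2 intercalated and macula densa cells, in that order, thus stood above the thick ascending limb, which had led in untreated kidneys, and the 98.8 and 80.8 CPM of the last 2 did not differ beyond counting error.

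Ptger4, on the minus strand at chr15:5206661-5244187, encodes the EP4 receptor, which raises cyclic AMP. It overlaps Ttc33 on the opposite strand. The thick ascending limb had 2.61 CPM untreated (13 UMIs), 20.5 CPM on day 2 (157 UMIs), 12.2 CPM on day 7 (26 UMIs) and 16.3 CPM on day 30 (54 UMIs). The ratios were 7.83 (4.45 to 15.0), 4.65 (2.30 to 9.86) and 6.25 (3.37 to 12.5). Principal cells had 28.4 CPM on day 2 (148 UMIs) and 21.1 CPM on day 30 (35 UMIs), against 5.75 CPM untreated (27 UMIs), with ratios of 4.94 (3.26 to 7.74) and 3.67 (2.16 to 6.30). Intercalated cells had 7.60 and 14.3 CPM at these times, against 1.60 CPM untreated, and the day 2 call was lost with 10% of the library mean subtracted and with clusters. Endothelium had 22.6 CPM on day 30, against 9.11 CPM untreated, a ratio of 2.48 (1.41 to 4.46), not called with 30% of the library mean subtracted.

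Other immune classes and fibroblasts also held Ptger4, while neutrophils had 13.5 CPM on day 2, below the thick ascending limb and principal cells. Dendritic cells had 46.7 CPM on day 2 and 58.7 CPM on day 30, and T or NK cells had 53.2 and 51.1 CPM. Fibroblasts had 56.5 CPM on day 2, 19.4 CPM on day 7 and 27.0 CPM on day 30. The thick ascending limb thus had less Ptger3 and more Ptger4 at every time than untreated. Immediate-early genes, which cell dissociation can induce, were higher in that class too, 14 of 14 on day 2, 13 of 14 on day 7 and 14 of 14 on day 30. Of all genes measured there, 15.1%, 24.2% and 28.2% were higher at these times. In principal cells 0 of 14 were higher and 1 lower on day 2, and 2 of 14 were higher on day 30. The shares of all genes there were 10.7% higher and 9.33% lower on day 2, and 13.5% higher on day 30. Counts for the other classes are not reported here. The part of immediate-early genes in the Ptger4 levels was not tested.

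**Figure D5:**
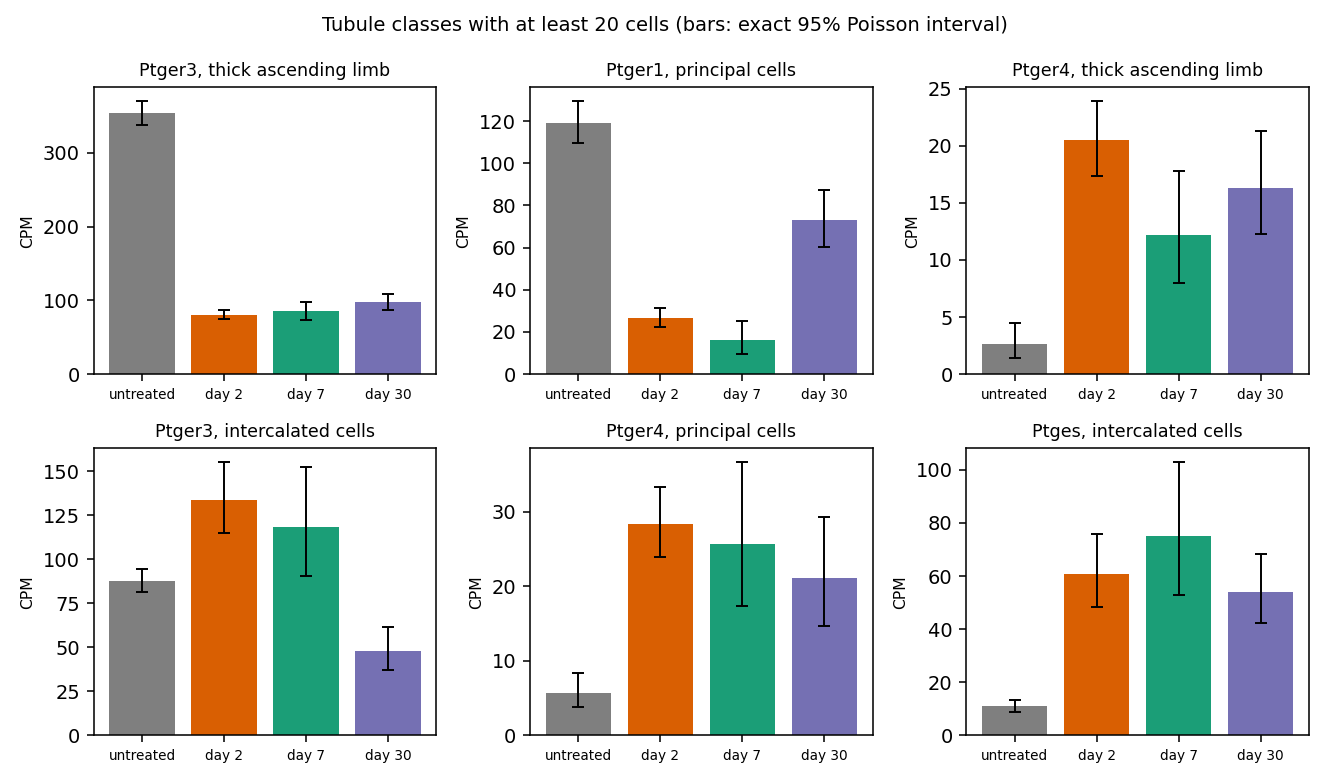
Receptors and Ptges in tubule classes with at least 20 cells, in CPM with exact 95% Poisson intervals, from untreated to day 30. Ptger3 in the thick ascending limb stands at 80.8 to 98.1 CPM after IRI and at 354 CPM untreated, while Ptger4 there stands at 12.2 to 20.5 CPM after IRI and at 2.61 CPM untreated.

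The steps of prostaglandin E2 synthesis were found in the same cells in several classes. In principal cells a UMI of both Ptgs1 and Ptges was found in 189 of 395 cells on day 2 and 56 of 159 on day 30, against 239 of 516 untreated. A UMI of Pla2g4a, of a cyclooxygenase (Ptgs1 or Ptgs2) and of Ptges was found in 102 cells on day 2 and 25 on day 30, against 76 untreated. Among neutrophils on day 2, 900 of 2530 had both Ptgs1 and Ptgs2, and 2 had all 3 steps. In macula densa cells 16 of 61 had all 3 steps on day 2, against 1 of 51 untreated. Urothelium had them in 19 of 164 cells on day 2, against 9 of 234 untreated, and fibroblasts in 13 of 81 cells on day 7. These counts depend on depth, which was 12868 UMIs at the median in day 2 principal cells and 7543 in untreated ones. The counts of all 3 steps also admit Ptgs2, found in 152 of 395 principal cells on day 2 and 0 of 516 untreated. With 10% of the library mean subtracted, Ptgs2 did not reach the minimum in principal cells on day 2. The part of free neutrophil RNA in these counts was not tested.

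Across the 47 profiles of a class in a library with at least 50 cells, each gene was compared with 11710 others by Pearson's r of log2(CPM + 10). The profiles of a library share its depth and free RNA, and r is given as a description. Ptgs2 was most like Cxcr2 (0.933), Csf3r (0.931) and Mmp9 (0.925), which are neutrophil genes on the marker list used to gate neutrophils. Ptgis was most like Gucy1b3 (0.977), Prkg1 (0.974) and Map1a (0.968). Ptger1 was most like Spock3 (0.928) and Col26a1 (0.888), and Ptger3 was most like Gm11789 (0.897), Gcgr (0.894) and Pdilt (0.870). Ptges was most like Tfap2a (0.892), Lix1 (0.853) and Pde8b (0.838), and Ptgds was most like Stra6 (0.829), D630011A20Rik (0.796) and Gc (0.792). Hpgd was most like Phf11d (0.860), Hivep3 (0.837) and Cyth3 (0.792), and Ptger4 was most like Tmem173 (0.829), Tmsb4x (0.805) and Rpl39 (0.798). Ptgs1 was most like Hacd4 (0.784), Dopey2 (0.730) and Sgk1 (0.719), and Pla2g4a was most like Ckap4 (0.801), Emp1 (0.754) and Cask (0.724). The cyclooxygenases had an r of 0.073 with each other.

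Other genes of the pathway were counted over whole libraries against untreated. These counts stand beside 22.1% of all genes higher and 17.3% lower on day 2, 21.2% and 10.7% on day 7, and 23.9% and 11.5% on day 30. With 4 to 12 genes measured in a list, several counts lie near these shares. Of 9 other prostanoid synthases, 8 were measured at each time, with 3 higher and 2 lower on day 2, 3 higher and 0 lower on day 7, and 3 higher and 0 lower on day 30. Hpgds, the haematopoietic prostaglandin D synthase, had 29.1 CPM on day 7, against 1.43 CPM untreated, a ratio of 20.4 (16.2 to 26.0). Akr1b8, an aldo-keto reductase, had 74.9 CPM on day 7, against 4.94 CPM, a ratio of 15.2 (13.4 to 17.2). Of 8 genes of breakdown and transport, 8 were measured, with 2 higher and 4 lower on day 2, 3 and 2 on day 7, and 2 and 3 on day 30. Slco2a1, the prostaglandin transporter, had 69.1 CPM on day 7, against 10.7 CPM untreated, a ratio of 6.46 (5.91 to 7.07). The proximal tubule anion transporters Slc22a6 and Slc22a8 were lower at each time, with 3.52 and 1.03 CPM on day 2, against 325 and 123 CPM untreated.

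The list of other prostanoid receptors also holds the related genes Ptgfrn, Pparg and Gpr17. Of its 9 genes, 4 were measured on day 2 with 0 higher and 1 lower. On day 7, 4 were measured with 1 higher and 2 lower, and on day 30, 5 with 3 higher and 2 lower. The prostacyclin receptor Ptgir had 11.9 CPM on day 30, against 0.50 CPM untreated, a ratio of 23.8 (16.2 to 36.3). The list of phospholipases and arachidonate supply also holds Mgll, Acsl4, Lpcat3, Mboat7, Faah and Pla2r1, which are not phospholipases. Of its 21 genes, 10 were measured on day 2 with 3 higher and 4 lower. On day 7, 10 were measured with 2 higher and 1 lower, and on day 30, 12 with 4 higher and 0 lower. Pla2g2d, a secreted phospholipase of dendritic cells and macrophages, had 1002 UMIs on day 30, against 1 untreated, a ratio of 793 (142 to 3.14e+04).

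The other branches of arachidonic acid use differed from each other in direction. Of 12 genes of the lipoxygenase branch, leukotriene receptors included, 7 were measured on day 2 with 6 higher and 1 lower. On day 7, 5 were measured with 2 higher and 1 lower, and on day 30, 6 with 4 higher and 2 lower. Alox5, which makes leukotrienes, had 23.3 CPM on day 2, against 0.0925 CPM untreated, a ratio of 252 (108 to 776). Its partner Alox5ap had 559 CPM, against 4.03 CPM. The list of the epoxygenase branch is mixed, as it also holds the epoxide hydrolases Ephx1 and Ephx2 and the Cyp4a genes. Of its 11 genes, 7 were measured on day 2 with 0 higher and 5 lower. On day 7, 8 were measured with 1 higher and 5 lower, and on day 30, 7 with 0 higher and 5 lower. Cyp4a12a, a proximal tubule enzyme, had 3.78 CPM on day 2, against 170 CPM untreated, a ratio of 0.0223 (0.0199 to 0.0248). Within the thick ascending limb on day 2, the epoxygenase list had 0 higher and 4 lower of 6 measured genes. Neutrophils and proximal tubule cells differed in number between the libraries, and the part of cell make-up in the counts over whole libraries was not tested.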

How the data were processed

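Droplet single-cell RNA-seq was analysed from 4 libraries of sorted GFP-positive kidney cells. The deposited values are raw UMI counts per gene and barcode, in filtered matrices made by the authors with Cell Ranger 7.0.1 and the mm10 genome, per the submitters' processing notes. The matrix headers name version 3.0.1 of their writing software instead. Depth was 49397016 to 98818914 UMIs per library. Barcodes with under 500 UMIs, under 300 genes or over 50% mitochondrial UMIs were removed, as were doublets called by Scrublet in scanpy 1.11.5 at an assumed rate of 0.8% per 1000 barcodes, at most 10%. Scrublet removed 678, 10 and 581 barcodes on days 2, 7 and 30, but 1 of 9286 untreated barcodes, so it did not work there.

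Cells were scored by 22 marker lists as the mean z-score of log values scaled to 10000 UMIs. A class needed a score of 0.5, a lead of 0.25 over the next class and 3 markers with a UMI. Of kept cells, 2006 (8.67%) lay within 0.1 of the lead cut. Names are thus rebuilt from markers. Counts were summed per class and library into CPM. Fold differences were read by the 2-fold size rule across all 27998 genes with exact 95% Poisson intervals (scipy 1.17.1), which cover counting error only, and no test was run because each group is 1 library. Genes at 0 UMIs in a class have a floor of 3 counts per library. Thinning drew 2000 UMIs per cell and left out 0 cells. Clusters came from Leiden (leidenalg 0.10.2, resolution 1, 15 neighbours, 30 components, 2000 variable genes), giving 39 clusters. The size rule was checked on simulated counts.

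The 10 genes, the other lists (88 genes in 7 lists) and the marker lists were chosen with earlier results of these data known, and gate thresholds were set after seeing the data. Genes outside the set were named by the largest calls of each comparison over whole libraries, and likeness partners by the highest r, up to 3 a gene; some results are not reported here. Alternatives were a 20 CPM minimum, no minimum, median-ratio scaling, doublets kept, at most 20% mitochondrial UMIs, a common UMI floor, 10% of the library mean subtracted, a stricter gate (lead 0.5) and Leiden clusters. Subtracting 30%, gated epithelium alone and leaving out neutrophils were added after seeing the data.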

Additional observations from a re-analysis of the deposited data

Results flagged for a closer look

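Some of the 10 genes were called higher in one class and lower in another against the same untreated library. The difference between classes was not tested, since each group is 1 library. Ptgs1 on day 2 had a ratio of 3.56 in the proximal tubule and 0.257 in the distal convoluted or connecting tubule, and on day 30 it had 2.33 in the thick ascending limb and 0.367 in endothelium. Ptges on day 2 had a ratio of 5.55 in intercalated cells and 4.59 in the macula densa, and 0.434 in the distal convoluted or connecting tubule. On day 7 it had 2.91 in the thick ascending limb, from 15 UMIs against 12 untreated, and 0.446 in urothelium. The thick ascending limb call was lost with median scaling, at most 20% mitochondrial UMIs, the common UMI floor, 10% subtracted or clusters. Ptgds on day 2 had a ratio of 6.34 in the proximal tubule, and of 0.0843 in the thick ascending limb, 0.217 in the thin limb and 0.391 in the distal convoluted or connecting tubule. On day 7 it had 19.8 in the proximal tubule and 6.27 in urothelium, and 0.430 in the thick ascending limb. The distal tubule call of Ptgds on day 2 was lost with 10% subtracted, at most 20% mitochondrial UMIs or the stricter gate. With 10% subtracted, Ptgs1 in the proximal tubule on day 2 and Ptgds in urothelium on day 7 did not reach the minimum.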

How the results depend on the processing

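Of 28 calls over whole libraries and 122 within classes, no minimum kept 28 and 122, doublets kept 28 and 114, median scaling 24 and 112, and the 20 CPM minimum 18 and 89. The stricter gate kept 97 of 109, clusters 74 of 96, subtracting 10% kept 89, and subtracting 30% kept 47. Ptger3 lower in the thick ascending limb on days 2, 7 and 30, Ptger1 lower in principal cells on day 2 and Ptges higher in intercalated cells on days 2 and 30 kept their calls under every alternative computed for them.

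Counts over whole libraries against untreated were 1 lower on day 2 and 1 higher on day 7 with 20 CPM. The higher count on day 30 was 3 with median scaling, 3 with at most 20% mitochondrial UMIs and 2 in gated epithelium. Counts of gene and class pairs with 20 CPM were 6 lower on day 2, 2 higher on day 7 and 3 lower on day 30, and with median scaling 8 lower on day 30. The common UMI floor gave 2 higher and 2 lower on day 2, 3 higher and 2 lower on day 7, 7 higher and 3 lower on day 7 against day 2, and 1 higher and 1 lower on day 30 against day 2. It left 495 to 1920 cells per library. Subtracting 10% gave 9 higher on day 2 and 3 lower on day 30. Clusters gave 3 higher and 2 lower on day 7, 9 lower on day 30, and 7 and 11 higher on days 7 and 30 against day 2. Subtracting 30% gave 6 higher on day 2, 3 on day 7 and 8 on day 30, and 5 and 10 lower on days 7 and 30 against day 2.

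Ratios on the other side of 1 that could be computed were as follows. With 30% subtracted, Ptgs2 on day 2 over untreated was 0 in the thick ascending limb and 0 in the distal convoluted or connecting tubule (0 there also with 10%). With 30%, Ptgds was 0.505 in the proximal tubule and 0 in the thick ascending limb, thin limb and parietal epithelium on day 7 over day 2. On day 30 over day 2 it was 0 in fibroblasts, and Ptgs2 was 3.73 in endothelium. With 10%, Ptgs2 was 31.8 in the thin limb on day 7 over day 2, and 21.4 in the thin limb and 2.17 in principal cells on day 30 over day 2. With clusters, Ptgds in urothelium was 0.773 on day 30 over untreated, Ptges in the thick ascending limb 0.631 on day 7 over day 2, and Ptgs1 in dendritic cells 0.977 on day 30 over day 2. In gated epithelium, Hpgd was 0.834 on day 30 over day 2, where the macrophages are left out. For Ptgs2 called lower than day 2, the day 2 level came to 0 in 3 results with 10% and 13 with 30%, so no ratio exists. Of these, dendritic cells on day 30 with 10%, and thin limb, fibroblasts and macrophages on day 7 and macrophages and dendritic cells on day 30 with 30%, were called higher. The cause was otherwise not tested.

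No paired analysis was possible because each group is 1 library. Median scaling moved the median of all genes by 0.11, 0.38 and 0.39 (log2) over whole libraries on days 2, 7 and 30, so calls near 2-fold depend on it. Depth limits classes under 50 cells, and with 1 library per group the spread between animals is unknown.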
